A study of Rattus norvegicus with 16 samples.

Results

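The phagocyte NADPH oxidase of rat microglia was followed through 5 of its genes, Cybb, Cyba, Ncf1, Ncf4 and Rac2, chosen by symbol in the series' count table. All 5 were found among 21842 gene symbols, and all 5 were among the 13608 of 30560 gene identifiers that passed the filter on low counts. The study asked how a past X-ray exposure of the brain changes the response of microglia to lipopolysaccharide (LPS), a molecule of the bacterial outer membrane that triggers inflammation. Male Wistar rats of the strain Hsd/Cpb:WU were irradiated with X-rays at 14 Gy or sham-irradiated, and 6 weeks later they were injected intraperitoneally with LPS or with phosphate-buffered saline (PBS). The groups were thus irradiated rats given LPS, irradiated rats given PBS, sham-irradiated rats given LPS and sham-irradiated rats given PBS, with 4 libraries each and 16 in all. Microglia were sorted from whole brain, dissociated mechanically in the cold, by their high CD11b, intermediate CD45 and exclusion of DAPI, a gate that other myeloid cells can also enter. The labels used here give neither the age of the rats nor the time from injection to sorting, and they do not say which animals the libraries came from, so a p-value here speaks only of the spread among the libraries, which may be technical.

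NADPH oxidase 2 is the enzyme that phagocytes use to make superoxide on purpose. Its catalytic core, gp91phox (NOX2, encoded by Cybb), sits in the membrane in a stable pair with p22phox (Cyba) and passes electrons from cytosolic NADPH to oxygen. At rest the core is idle. On activation the organizer p47phox (Ncf1) is phosphorylated and docks on p22phox. The subunit p40phox (Ncf4) binds a phosphoinositide of the phagosome membrane, and the GTPase Rac2 arrives separately. In the brain, microglia are the main cells that carry this enzyme, and messenger RNA levels say nothing of whether it was assembled.

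Promoter windows were available from RefSeq (build GRCr8) for 3 of the 5 genes, the pair of membrane subunits Cybb and Cyba and the organizer Ncf1, and all 3 are shown. They let the window of Cybb, which had the largest differences of the 5 with irradiation, be read beside that of its membrane partner. Each window runs from 250 bases before to 50 bases after the start of the gene, 5′ to 3′ on the gene's own strand. Capitals mark the core letters of an ETS site of the kind PU.1 binds, GAGGAA, which reads TTCCTC on the opposite strand, and the interferon regulatory factor pattern, GAAA followed by 2 bases of any kind and GAAA again. The Cybb window is chrX:16065016-16065315 on the minus strand, the Cyba window chr19:67404165-67404464 on the minus strand, and the Ncf1 window chr12:28121635-28121934 on the plus strand.
Cybb: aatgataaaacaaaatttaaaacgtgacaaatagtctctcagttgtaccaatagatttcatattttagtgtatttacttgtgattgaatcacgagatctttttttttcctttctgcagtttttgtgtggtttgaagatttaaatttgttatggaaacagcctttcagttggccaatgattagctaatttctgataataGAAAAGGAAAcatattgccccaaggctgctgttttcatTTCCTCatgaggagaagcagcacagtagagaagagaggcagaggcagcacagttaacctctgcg
Cyba: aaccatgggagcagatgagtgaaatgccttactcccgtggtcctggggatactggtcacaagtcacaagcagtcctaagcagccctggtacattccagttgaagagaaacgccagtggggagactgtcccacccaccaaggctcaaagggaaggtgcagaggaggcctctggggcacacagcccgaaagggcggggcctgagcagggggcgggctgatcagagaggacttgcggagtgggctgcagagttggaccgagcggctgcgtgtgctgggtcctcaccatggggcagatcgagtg
Ncf1: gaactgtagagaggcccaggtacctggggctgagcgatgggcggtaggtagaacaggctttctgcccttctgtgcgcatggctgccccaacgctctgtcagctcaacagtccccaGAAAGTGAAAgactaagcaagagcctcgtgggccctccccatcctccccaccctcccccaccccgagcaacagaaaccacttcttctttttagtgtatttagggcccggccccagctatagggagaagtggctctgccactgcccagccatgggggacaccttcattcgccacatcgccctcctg

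Both strands of the windows were searched for 6 patterns. The Cybb window held the ETS core with its first base 14 bases before the start, the interferon regulatory factor pattern 52 bases before it, CCAAT 203 and 79 bases before it, and the AP-1 pattern TGANTCA 166 bases before it. The Ncf1 window held the interferon regulatory factor pattern 135 bases before the start, and the Cyba window held none of the 6. Neither the STAT pattern (TTC and GAA with 3 bases of any kind between) nor the NF-kB pattern was found in the 3 windows. Of 33469 promoter windows of this length, 27.6% held the ETS core, 37.5% CCAAT, 8.87% the STAT pattern, 7.51% the NF-kB pattern, 7.33% the AP-1 pattern and 3.92% the interferon regulatory factor pattern. A match describes letters and is no evidence of binding.

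Sequencing depth was 18997145 to 62745496 counted reads per library in irradiated rats given LPS, 14309458 to 25015047 in irradiated rats given PBS, 16573558 to 19785105 in sham rats given LPS and 16849603 to 22482126 in sham rats given PBS. All 9 microglia markers were detected in every library. Levels are given as CPM, counts per 1e6 counts of a library size scaled by TMM factors. The summed level of these markers was lower after irradiation, at 15957 to 20347 CPM with LPS and 20458 to 25243 CPM with PBS, against 34511 to 38634 CPM in sham rats given LPS and 40138 to 43555 CPM in sham rats given PBS. The irradiated libraries numbered 1 stood apart. In the LPS group, library 1 had 2343 CPM of neutrophil markers against 404 to 597 CPM in the other 3, and it had the highest neuron marker sum of the study, at 93.6 CPM. In the PBS group, library 1 had the second highest, at 61.3 CPM. Results for the 5 members, and for the genes named below from the lists of partners, NADPH supply and disposal, are therefore also given without both of these libraries where that changed a call.

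**Figure D1:**
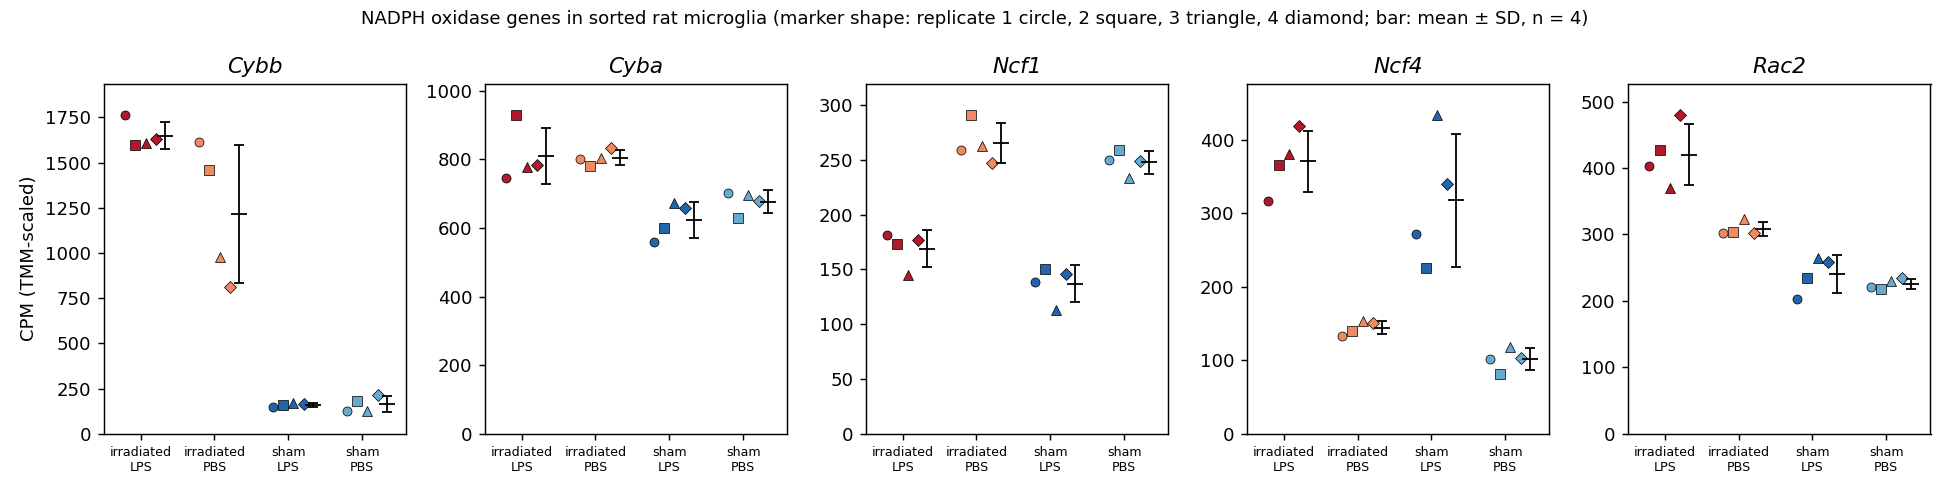
Expression of the 5 NADPH oxidase genes in CPM (vertical axes from 0, one panel per gene) in each of the 16 libraries, by group, with points for libraries and bars for the mean and SD of 4. Cybb lies between 812 and 1761 CPM in all 8 irradiated libraries, against 125 to 215 CPM in all 8 sham libraries, while Ncf1 and Ncf4 separate by LPS.

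Irradiation raised 4 of the 5 genes in rats given PBS, Cybb 7.49-fold and the others by much less. In rats given LPS it again raised 4 of 5. These were Cybb, Cyba, Ncf4 and Rac2 with PBS, and Cybb, Cyba, Ncf1 and Rac2 with LPS. No member fell with irradiation in either comparison. Irradiated and sham libraries did not overlap for 4 of the 5 genes under PBS and 3 of 5 under LPS, where 26.7% of all genes did not overlap in each comparison. Among all genes tested, edgeR's quasi-likelihood test called 11.5% higher and 9.91% lower in irradiated rats given PBS, and 15.1% higher and 12.6% lower in irradiated rats given LPS. LPS gave a split pattern: Ncf4 rose and Ncf1 fell in sham rats, and in irradiated rats Ncf4 and Rac2 rose and Ncf1 fell. The background was 15.2% higher and 14.5% lower in sham rats and 17% higher and 14.5% lower in irradiated rats, so 1 member up and 1 down of 5 in sham rats is near the background. LPS and PBS libraries did not overlap for 3 of 5 genes in irradiated rats and 2 of 5 in sham rats, against 32.3% and 29.9% of all genes. The comparisons share groups pairwise and are therefore given side by side only. The median log2 fold change of the 5 genes was 0.45 with irradiation under PBS and 0.38 under LPS, and 0.44 with LPS in irradiated rats and -0.03 in sham rats, where the median over all genes lay between -0.02 and 0.01 in each comparison.

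**Figure D2:**
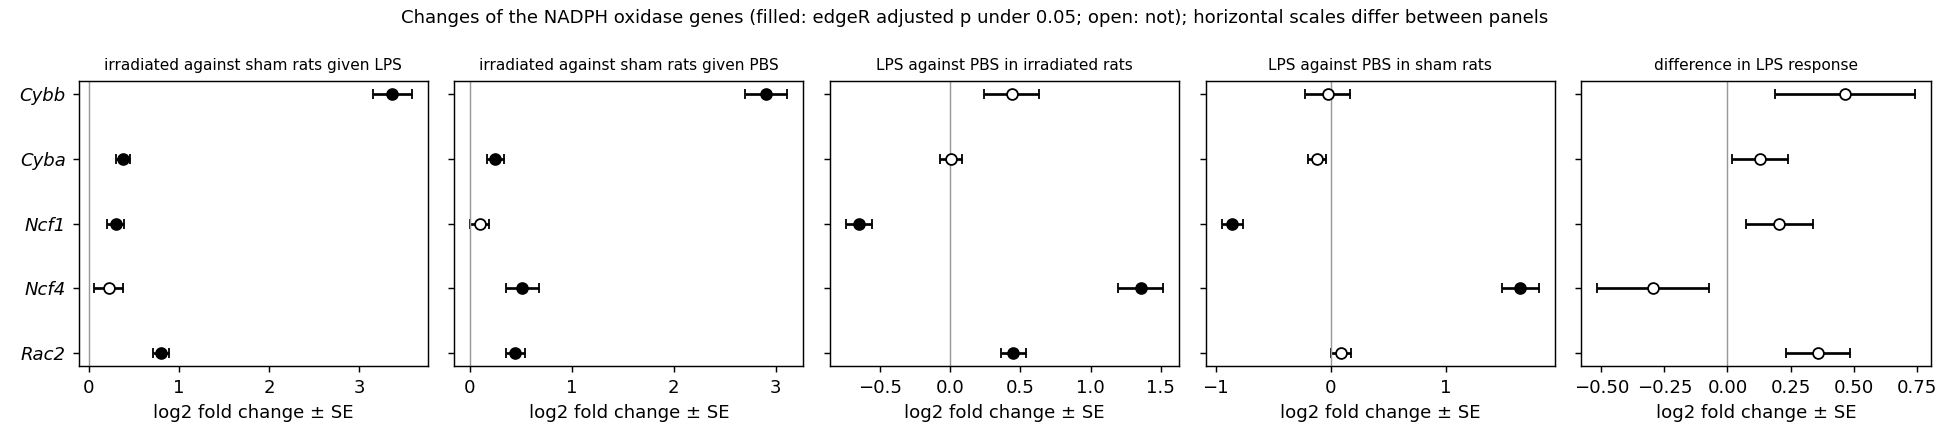
Log2 fold change (horizontal axis, log2 scale) of each of the 5 genes in the 4 pairwise comparisons and in the difference in LPS response (one panel each, with scales that differ), with bars of 1 SE and filled points where the adjusted p was under 0.05. The 2 Cybb points for irradiation, 2.90 and 3.37, stand apart from the other members, and the LPS points of Ncf4 and Ncf1 lie on opposite sides of 0.

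Cybb (ENSRNOG00000003622), the catalytic core, had 1761, 1599, 1610 and 1630 CPM in irradiated rats given LPS and 1613, 1462, 980 and 812 CPM in irradiated rats given PBS. It had 148, 157, 168 and 166 CPM in sham rats given LPS, and 127, 183, 125 and 215 CPM in sham rats given PBS. The lowest irradiated library was well above the highest sham library, so irradiated and sham libraries did not overlap under either injection. The means were 1650 ± 75.2 CPM in irradiated rats given LPS, 1217 ± 382 CPM in irradiated rats given PBS, 160 ± 9.20 CPM in sham rats given LPS and 163 ± 44.3 CPM in sham rats given PBS (SD, n = 4 each). The log2 fold change with irradiation was 2.90 ± 0.21 under PBS (SE, edgeR adjusted p = 1.1e-07) and 3.37 ± 0.21 under LPS (SE, edgeR adjusted p = 1.6e-08), which is 10.3-fold. Of the 13608 genes tested, 305 (2.24%) had a larger log2 fold change under PBS and 229 (1.68%) under LPS. Without both irradiated libraries numbered 1, the log2 fold changes were 2.75 and 3.35.

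LPS gave Cybb a log2 fold change of 0.44 ± 0.20 in irradiated rats (SE, edgeR adjusted p = 0.102), with overlapping groups, and of -0.03 ± 0.20 in sham rats (SE, edgeR adjusted p = 0.941). The first of these passed when one library was left out: without irradiated PBS library 1 it was 0.60 (edgeR adjusted p = 0.0274, with a range of 0.0274 to 0.264 over all alternatives). The 2 sham groups did not differ beyond their spread. In both PBS groups the libraries scattered more than under LPS. The coefficient of variation was 4.56% in irradiated rats given LPS against 31.4% in irradiated rats given PBS, and 5.76% in sham rats given LPS against 27.3% in sham rats given PBS, a difference in spread that was not tested.

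Marker genes of other cells moved with the Cybb difference. With PBS, 7 of 9 monocyte markers, 7 of 8 border macrophage markers and 9 of 10 T and NK cell markers rose with irradiation (edgeR), against 11.5% of all genes called higher. The summed levels in irradiated rats given PBS were 521 to 624 CPM for monocyte markers, 1197 to 1514 CPM for border macrophage markers and 78.4 to 160 CPM for T and NK cell markers. In sham rats given PBS they were 191 to 259, 376 to 433 and 11.3 to 17.1 CPM. With LPS, 7 of 9, 7 of 8 and 9 of 10 markers of these lists rose with irradiation, against 15.1% of all genes called higher. Border macrophage markers then summed to 3063 to 4244 CPM in irradiated rats, against 470 to 1026 CPM in sham rats. Monocytes and macrophages express this oxidase too, and the part of such cells in the Cybb difference was not tested. In these bulk samples, more cells of a type and more RNA per cell cannot be told apart. Neutrophils, which are rich in the enzyme, have 12 markers in the lists used, 8 of which were tested. Under PBS, Cxcr2, a chemokine receptor, rose with irradiation (log2 fold change 2.56 ± 0.48, SE, edgeR adjusted p = 0.000998) and Csf3r, a growth factor receptor, fell (-0.63 ± 0.08, SE, edgeR adjusted p = 1.5e-05), and the other 6 did not pass. The 12 summed to 229 to 304 CPM in irradiated rats given PBS, against 322 to 403 CPM in sham rats given PBS. Csf3r held most of these sums, and without it they were 18.9 to 115 CPM and 10.1 to 45.1 CPM, with overlap. Under LPS, 7 of the 8 rose with irradiation, against 15.1% of all genes called higher, to sums of 404 to 2343 CPM, against 246 to 299 CPM in sham rats. The granule genes of the list differed. Mpo and Prtn3 had 0 counts in all 16 libraries, Elane at most 5 and Ltf at most 1, also in the library with 2343 CPM of neutrophil markers. Others were well detected in irradiated rats given LPS, with 401 to 5129 counts per library for Ngp and 101 to 3075 for Mmp8. Camp had 138 to 1920 and Lcn2 1044 to 2363 there. The part of neutrophils in these comparisons was not tested.

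Cyba (ENSRNOG00000013014), the membrane partner that stabilises gp91phox, had 747, 928, 779 and 785 CPM in irradiated rats given LPS and 801, 781, 806 and 835 CPM in irradiated rats given PBS. It had 559, 600, 673 and 659 CPM in sham rats given LPS, and 704, 629, 696 and 679 CPM in sham rats given PBS. Irradiated libraries were all above sham libraries under each injection, by a small margin. The log2 fold change with irradiation was 0.25 ± 0.08 under PBS (SE, edgeR adjusted p = 0.0294) and 0.38 ± 0.08 under LPS (SE, edgeR adjusted p = 0.00135). With LPS it was 0.01 ± 0.08 in irradiated rats (SE, edgeR adjusted p = 0.957) and -0.12 ± 0.08 in sham rats (SE, edgeR adjusted p = 0.277). The call under PBS was close to the threshold: the edgeR adjusted p was 0.0993, 0.0519 and 0.0624 without sham PBS library 2, 3 or 4, and 0.0552, 0.0592 and 0.0763 without irradiated PBS library 1, 3 or 4. With no filter on low counts it was 0.0757, and over all alternatives it ranged from 0.000228 to 0.0993.

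The pair of membrane subunits was compared within each library as a ratio of counts, which does not depend on scaling between libraries but is no ratio of molecules, since gene lengths differ. There were 0.424, 0.581, 0.484 and 0.481 Cyba counts per Cybb count in irradiated rats given LPS and 0.496, 0.534, 0.822 and 1.03 in irradiated rats given PBS. In sham rats given LPS there were 3.78, 3.82, 4.00 and 3.97, and in sham rats given PBS 5.55, 3.44, 5.57 and 3.15. No irradiated library reached the lowest sham library. The difference in the mean log2 ratio with irradiation was -2.64 under PBS and -2.99 under LPS. Each had p = 0.0286 in a two-sided exact permutation test, the smallest p that 4 against 4 allows, and 0.0381 after Benjamini-Hochberg adjustment over 16 ratio tests. Both differences hold the rise of Cybb itself, by 2.90 and 3.37 on the log2 scale, and are no separate result on Cyba. LPS differences were -0.49 in irradiated rats (exact permutation p = 0.143, adjusted 0.163) and -0.14 in sham rats (exact permutation p = 0.514, adjusted 0.514).

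**Figure D3:**
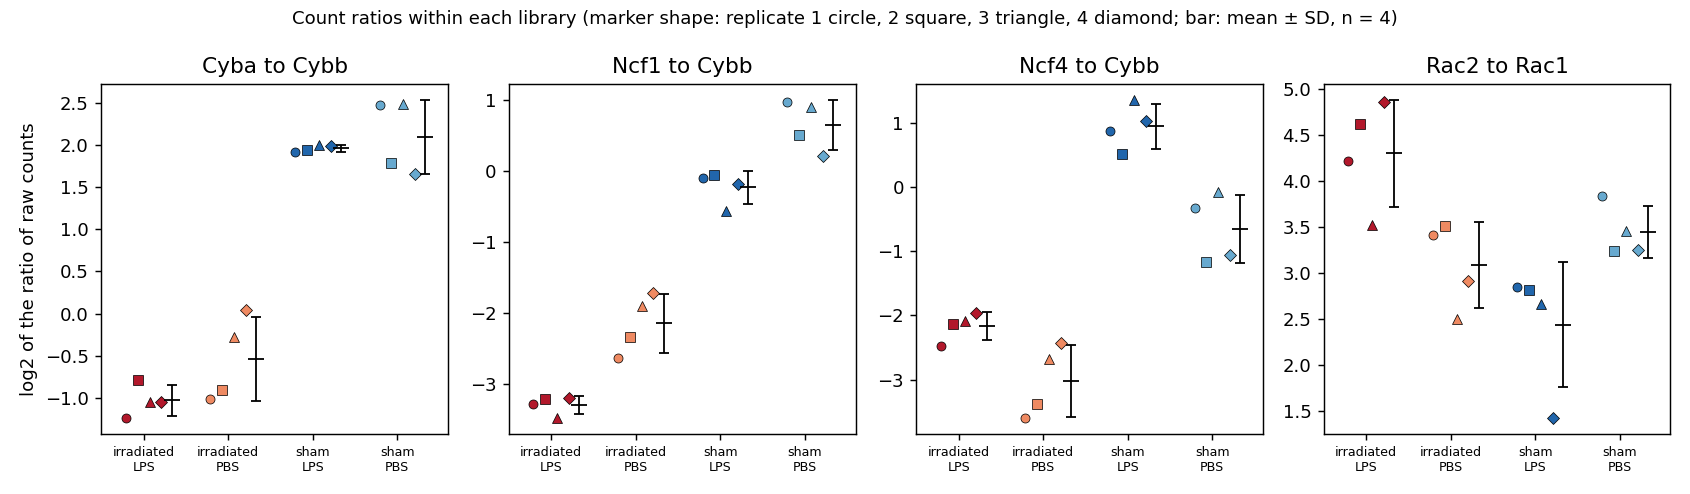
Log2 ratio of counts within each library (vertical axes, log2 scale) for Cyba to Cybb, Ncf1 to Cybb, Ncf4 to Cybb and Rac2 to Rac1, by group, with points for libraries and bars for the mean and SD of 4. All 3 ratios to Cybb are lower in irradiated than in sham libraries, by 2.36 to 3.11 on the log2 scale, and all hold the rise of Cybb itself.

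Ncf1 (ENSRNOG00000001480), the organizer, had 181, 173, 145 and 177 CPM in irradiated rats given LPS and 259, 290, 263 and 248 CPM in irradiated rats given PBS. It had 138, 151, 113 and 146 CPM in sham rats given LPS, and 249, 259, 234 and 249 CPM in sham rats given PBS. LPS libraries lay below all PBS libraries in both irradiated and sham rats. The log2 fold change with LPS was -0.65 ± 0.09 in irradiated rats (SE, edgeR adjusted p = 3.5e-05) and -0.86 ± 0.09 in sham rats (SE, edgeR adjusted p = 2.5e-06), where the PBS level was 1.81 times the LPS level. Irradiation gave 0.10 ± 0.09 under PBS (SE, edgeR adjusted p = 0.520) and 0.30 ± 0.09 under LPS (SE, edgeR adjusted p = 0.0215), with overlapping groups in both. The call under LPS was lost without irradiated LPS library 1, 2 or 4 (edgeR adjusted p = 0.064, 0.0562 and 0.0595), without sham LPS library 3 (0.0718), without both irradiated libraries numbered 1 (0.0589) and when only the 2 groups compared were fitted (0.0771, the highest over all alternatives, where the lowest was 0.00621).

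Ncf4 (ENSRNOG00000006940), the phosphoinositide-binding subunit, went the other way with LPS. It had 317, 366, 381 and 419 CPM in irradiated rats given LPS and 133, 140, 154 and 151 CPM in irradiated rats given PBS. It had 272, 225, 433 and 341 CPM in sham rats given LPS, and 101, 81.7, 118 and 104 CPM in sham rats given PBS. Every LPS library was above every PBS library. LPS raised it 2.56-fold in irradiated rats (log2 fold change 1.36 ± 0.16, SE, edgeR adjusted p = 4.5e-06) and 3.14-fold in sham rats (1.65 ± 0.16, SE, edgeR adjusted p = 7.9e-07). Of all genes tested, 5.53% and 4.5% had a larger log2 fold change in these comparisons. Markers of monocytes moved in both directions with LPS, as did those of neutrophils in sham rats. Monocyte marker sums were 684 to 1079 CPM with LPS against 521 to 624 CPM with PBS in irradiated rats, and 300 to 439 CPM with LPS against 191 to 259 CPM with PBS in sham rats. Without Plac8, which rose in both, they were 435 to 753 CPM with LPS against 426 to 474 CPM with PBS in irradiated rats, and 77.6 to 182 CPM with LPS against 123 to 137 CPM with PBS in sham rats, with overlap in both. Among the other monocyte markers, Itga4 fell with LPS in irradiated and in sham rats (log2 fold change -0.87 and -1.52, edgeR adjusted p = 0.0042 and 8.8e-05), and Ccr2 fell in sham rats (-1.81, edgeR adjusted p = 0.0038). In irradiated rats, 7 of the 8 neutrophil markers tested rose with LPS and 0 fell (edgeR), against 17% and 14.5% of all genes. Neutrophil marker sums there were 404 to 2343 CPM with LPS against 229 to 304 CPM with PBS. The same sums in sham rats were 246 to 299 CPM with LPS against 322 to 403 CPM with PBS. There Csf3r fell (-0.57, edgeR adjusted p = 3e-05) while Cxcr2 and Lcn2 rose (3.31 and 4.48, edgeR adjusted p = 5.9e-05 and 0.0011), and without Csf3r the sums were 22.9 to 86.1 CPM with LPS against 10.1 to 45.1 CPM with PBS. Border macrophage marker sums were 3063 to 4244 CPM with LPS against 1197 to 1514 CPM with PBS in irradiated rats. In sham rats they were 470 to 1026 CPM against 376 to 433 CPM. Of these 8 markers, 3 rose and 2 fell with LPS in irradiated rats (edgeR), against 17% and 14.5% of all genes. In sham rats 3 rose and 1 fell, against 15.2% and 14.5%. The part of these cell types in the Ncf4 and Ncf1 differences was not tested.

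With irradiation, Ncf4 was 1.43-fold higher under PBS (log2 fold change 0.52 ± 0.16, SE, edgeR adjusted p = 0.0262), with no overlap between groups. Under LPS the value was 0.22 ± 0.16 (SE, edgeR adjusted p = 0.334), and the sham libraries spanned the irradiated ones. Single libraries decided both calls. The call under PBS was lost without sham PBS library 1, 2 or 4 (edgeR adjusted p = 0.0566, 0.0902 and 0.0503) or irradiated PBS library 3 or 4 (0.0648 and 0.0619), with a range of 0.00203 to 0.0902 over all alternatives. The value under LPS passed without sham LPS library 3, at 0.41 (edgeR adjusted p = 0.0365, with a range of 0.0365 to 0.721 over leaving out each library).

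The ratios of both cytosolic genes to Cybb in the same library shifted with irradiation and, in opposite directions, with LPS. With irradiation these ratios hold the rise of Cybb itself, by 2.90 under PBS and 3.37 under LPS on the log2 scale. Their irradiation tests are therefore no separate result on Ncf1 or Ncf4. The mean log2 ratio of Ncf1 to Cybb differed with irradiation by -2.79 under PBS and -3.06 under LPS, and with LPS by -1.15 in irradiated rats and -0.88 in sham rats. All 4 had an exact permutation p = 0.0286, adjusted 0.0381, and groups that did not overlap. The ratio of Ncf4 to Cybb differed with irradiation by -2.36 under PBS and -3.11 under LPS, and with LPS by 1.61 in sham rats, each with an exact permutation p = 0.0286, adjusted 0.0381. With LPS in irradiated rats it differed by 0.86 (exact permutation p = 0.0571, adjusted 0.0703).

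Rac2 (ENSRNOG00000007350), the blood cell GTPase of the complex, had 402, 427, 370 and 479 CPM in irradiated rats given LPS and 302, 304, 323 and 302 CPM in irradiated rats given PBS. It had 203, 234, 264 and 259 CPM in sham rats given LPS, and 221, 218, 230 and 234 CPM in sham rats given PBS. The irradiated LPS libraries were the highest, the irradiated PBS libraries came next without overlap, and the 2 sham groups overlapped. Irradiation raised it 1.36-fold under PBS (log2 fold change 0.45 ± 0.09, SE, edgeR adjusted p = 0.0013) and 1.75-fold under LPS (0.81 ± 0.09, SE, edgeR adjusted p = 2.2e-06). LPS raised it 1.36-fold in irradiated rats (0.45 ± 0.09, SE, edgeR adjusted p = 0.00079) and gave 0.09 ± 0.09 in sham rats (SE, edgeR adjusted p = 0.494). Rac2 is also expressed by lymphocytes. T and NK cell markers summed to 302 to 517 CPM in irradiated rats given LPS and 78.4 to 160 CPM in irradiated rats given PBS. In sham rats they summed to 12.4 to 99.6 CPM with LPS and 11.3 to 17.1 CPM with PBS. Most of the list did not pass with LPS. Of the 10 markers, edgeR called 3 higher and 0 lower with LPS in irradiated rats, against 17% and 14.5% of all genes. In sham rats it called 2 higher and 0 lower, against 15.2% and 14.5%. The part of these cells in the Rac2 differences was not tested.

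Whether irradiation changed the LPS response was tested as the LPS effect in irradiated rats minus that in sham rats. None of the 5 genes passed: 0 were called by edgeR, by DESeq2 or by limma voom, and 1, Rac2, had an unadjusted p under 0.05 in edgeR. Of all genes tested, 1.26% were called. The log2 difference was 0.36 ± 0.13 for Rac2 (SE, edgeR unadjusted p = 0.0107, adjusted p = 0.229), 0.46 ± 0.28 for Cybb (SE, edgeR adjusted p = 0.577) and -0.29 ± 0.22 for Ncf4 (SE, edgeR adjusted p = 0.682). It was 0.21 ± 0.13 for Ncf1 (SE, edgeR adjusted p = 0.608) and 0.13 ± 0.11 for Cyba (SE, edgeR adjusted p = 0.736). Thus the Rac2 rise with LPS, which passed in irradiated rats and not in sham rats, was not shown to differ between them.

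The likeness of other genes to each member was measured as the root mean square difference of centred log2 CPM over the 16 libraries, among 7949 genes with sufficient expression. This is a description of these libraries, which share their groups. Nearest to Cybb were Iqgap1, a scaffold of the actin cytoskeleton, at 0.347, Lyz2, the macrophage lysozyme, at 0.358, and Igsf6 at 0.376, where the SD of Cybb itself was 1.65. Iqgap1 had log2 fold changes with irradiation of 3.02 under PBS and 3.45 under LPS. Nearest to Ncf4 were Ldha, a lactate dehydrogenase subunit, at 0.152, the translation initiation factor gene Eif1a at 0.215, and Nfe2l2, the antioxidant transcription factor NRF2, at 0.216. Nearest to Ncf1 were Trappc6a at 0.141 and Pik3r6 and Scarb1 at 0.145 each. Nearest to Rac2 were Rab10 at 0.101, Txn1, thioredoxin, at 0.125 and Rps13 at 0.128, and nearest to Cyba were Gabarap at 0.0691, Ifi35 at 0.0858 and Atp5f1d at 0.0877. Among the members themselves, Cyba and Rac2 were closest, at 0.249, and Cybb and Ncf1 farthest apart, at 1.57.

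A list of 15 partners and regulators of the complex had 13 genes tested. With irradiation, 0 rose and 3 fell under PBS by edgeR, against 11.5% and 9.91% of all genes, and 3 rose and 3 fell under LPS, against 15.1% and 12.6%. With LPS, 2 rose and 2 fell in irradiated rats, against 17% and 14.5% of all genes, and 2 rose and 4 fell in sham rats, against 15.2% and 14.5%. Cybc1, also called EROS, the chaperone that gp91phox and p22phox need to mature, fell with irradiation while Cybb rose. It averaged 557 ± 73 CPM in irradiated rats given LPS and 441 ± 39 CPM in irradiated rats given PBS, against 807 ± 24 CPM in sham rats given LPS and 594 ± 46 CPM in sham rats given PBS (SD, n = 4 each). The log2 fold change with irradiation was -0.43 ± 0.09 under PBS (SE, edgeR adjusted p = 0.0023) and -0.53 ± 0.09 under LPS (SE, edgeR adjusted p = 0.00023). Cybc1 rose with LPS, by 0.33 in irradiated rats and 0.44 in sham rats on the log2 scale (edgeR adjusted p = 0.0091 and 0.0013). Hvcn1, the voltage-gated proton channel that offsets the charge moved by the oxidase, fell in all 4 pairwise comparisons. Its log2 fold change was -0.42 with irradiation under PBS, -0.38 under LPS, -0.69 with LPS in irradiated rats and -0.73 in sham rats (edgeR adjusted p between 7.4e-06 and 0.00298).

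Rac1, the widely expressed relative that can stand in for Rac2, scattered between libraries of the same group, with 255 to 1752 counts per library. Its coefficient of variation was lowest in sham rats given PBS, at 18.9%, and highest in sham rats given LPS, at 63.2%. It averaged 22.0 ± 7.2 CPM in irradiated rats given LPS, 38.0 ± 14 CPM in irradiated rats given PBS, 49.9 ± 32 CPM in sham rats given LPS and 21.0 ± 4.0 CPM in sham rats given PBS (SD, n = 4 each). Its log2 fold change was -1.19 ± 0.36 with irradiation under LPS (SE, edgeR adjusted p = 0.024) and 1.25 ± 0.37 with LPS in sham rats (SE, edgeR adjusted p = 0.018). Without both irradiated libraries numbered 1, the value with irradiation under LPS was -1.16 ± 0.41 and did not pass (SE, edgeR adjusted p = 0.0579). The mean log2 ratio of Rac2 to Rac1 differed with irradiation by 1.86 under LPS, and with LPS by 1.22 in irradiated rats and -1.01 in sham rats, each with an exact permutation p = 0.0286, adjusted 0.0381. With irradiation under PBS it differed by -0.36 (exact permutation p = 0.257, adjusted 0.274). These differences hold the changes of Rac1 itself and are no separate result on Rac2. Besides the 2 values above, the log2 fold change of Rac1 was -0.79 with LPS in irradiated rats (edgeR adjusted p = 0.113). With irradiation under PBS that of Rac1 was 0.85 (edgeR adjusted p = 0.118).

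Genes of the other NADPH oxidases had few counts. None of 9 passed the filter on low counts, and over all 16 libraries Nox4 had 2 counts, Duox1 32 and Duox2 13, while Nox3 and Duoxa2 had 0. Nox1, the colon-type oxidase, had 114 counts in 6 libraries. These were 20, 30, 0 and 48 in irradiated rats given LPS and 6, 2, 0 and 8 in irradiated rats given PBS, with 0 in all 8 sham libraries.

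Genes that supply NADPH, the electron donor, moved both ways. Of 10 tested, edgeR called 4 higher and 2 lower with irradiation under PBS, against 11.5% and 9.91% of all genes, and 3 higher and 0 lower under LPS, against 15.1% and 12.6%. With LPS it called 2 higher and 3 lower in irradiated rats, against 17% and 14.5%, and 1 higher and 5 lower in sham rats, against 15.2% and 14.5%. The pentose phosphate enzymes Taldo1, transaldolase, and Rpia, ribose-5-phosphate isomerase, rose with irradiation under PBS, by 0.53 ± 0.07 and 0.68 ± 0.11 on the log2 scale (SE, edgeR adjusted p = 1.9e-05 and 0.0002). Nadk, the kinase that makes NADP from NAD, differed in its LPS response. Its LPS log2 fold change was 0.23 ± 0.08 in irradiated rats and -0.35 ± 0.08 in sham rats, a difference of 0.58 ± 0.11 (SE, edgeR adjusted p = 0.0132). Without both irradiated libraries numbered 1 the difference was 0.51 ± 0.12 and did not pass (SE, edgeR adjusted p = 0.0552), nor did the LPS effect in irradiated rats (0.16 ± 0.09, SE, edgeR adjusted p = 0.212).

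Genes that dispose of superoxide and peroxide rose where they moved with irradiation. Of 12 tested, edgeR called 6 higher and 0 lower under PBS and 5 higher and 0 lower under LPS, against 11.5% and 15.1% of all genes called higher and 9.91% and 12.6% called lower. Sod2, the mitochondrial superoxide dismutase, averaged 2019 ± 429 CPM in irradiated rats given LPS and 144 ± 13 CPM in irradiated rats given PBS, against 322 ± 78 CPM in sham rats given LPS and 70.7 ± 7.0 CPM in sham rats given PBS (SD, n = 4 each). Its LPS response was larger after irradiation, by 1.62 ± 0.23 on the log2 scale (SE, edgeR adjusted p = 0.0015). Prdx5, a peroxiredoxin, averaged 373 ± 92 CPM in irradiated rats given LPS, 108 ± 11 CPM in irradiated rats given PBS, 107 ± 18 CPM in sham rats given LPS and 71.8 ± 7.4 CPM in sham rats given PBS (SD, n = 4 each). Its LPS response was larger by 1.22 ± 0.22 on the log2 scale (SE, edgeR adjusted p = 0.008). Txn1 rose with irradiation by 0.61 ± 0.11 under PBS and 0.89 ± 0.11 under LPS on the log2 scale (SE, edgeR adjusted p = 0.00078 and 1.2e-05). In the irradiated LPS group these values stand beside the higher neutrophil, monocyte, border macrophage and T and NK cell marker sums given above, whose part in them was not tested.

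**Figure D4:**
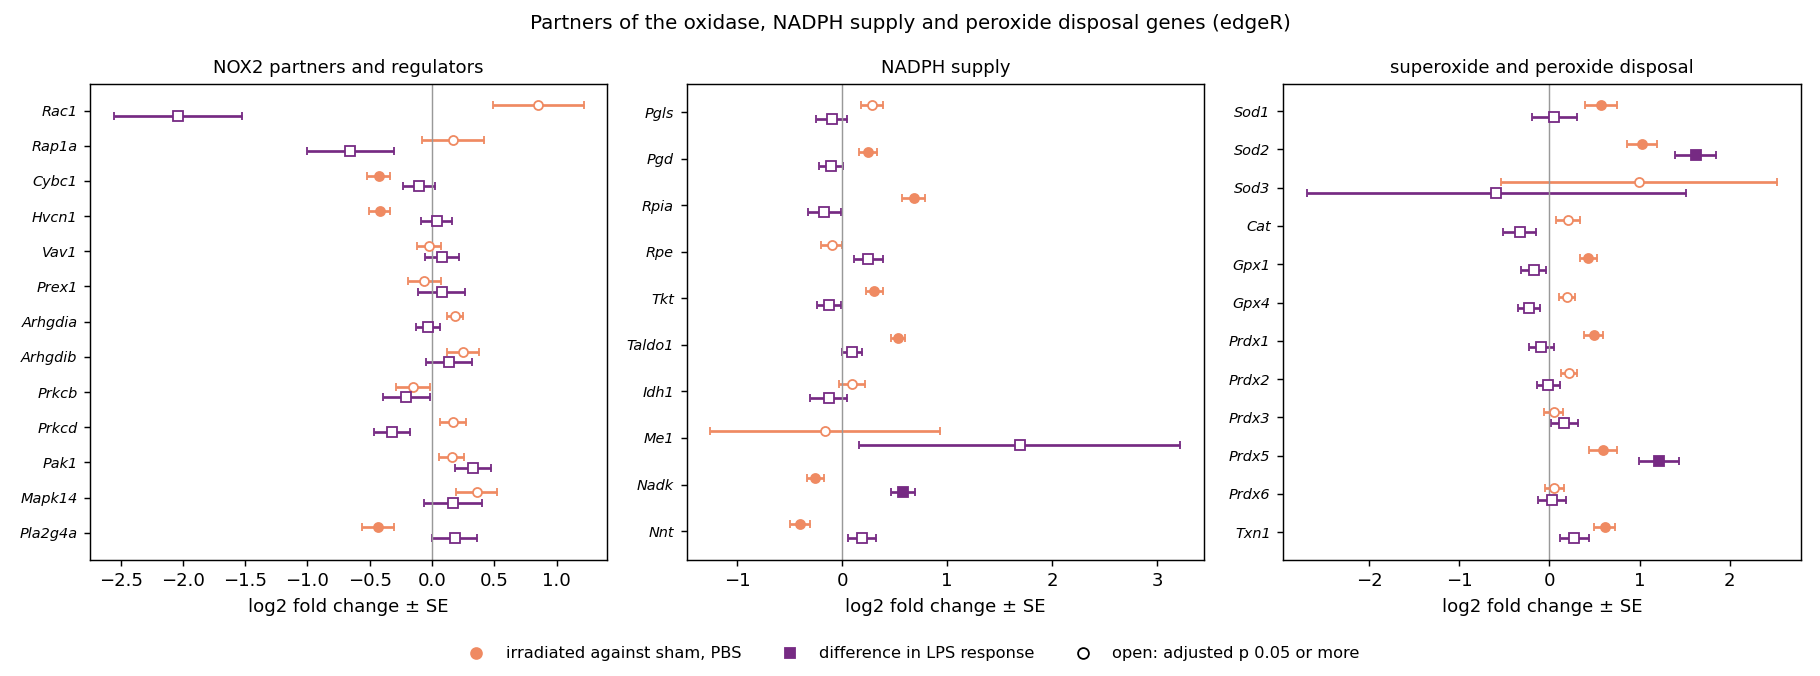
Log2 fold change with bars of 1 SE (horizontal axes, whose scales differ) of the tested genes in the lists of partners and regulators, NADPH supply, and superoxide and peroxide disposal, with circles for irradiated against sham rats given PBS, squares for the difference in LPS response, and open symbols where the adjusted p was 0.05 or more. Cybc1 lies at -0.43 and Hvcn1 at -0.42 with irradiation, and the filled squares for the difference are Nadk at 0.58, Sod2 at 1.62 and Prdx5 at 1.22.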

How the data were processed

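RNA sequencing counts of sorted microglia were analysed in 16 libraries, 4 in each of 4 groups. The authors deposited unnormalized read counts per gene, made with FastQC 0.11.9, fastp 0.23.2 and HTSeq 2.0.2 on build mRatBN7.2, per the submitters' processing notes. Which aligner, annotation release and strand setting they used is not given in the sources used here. Reads of overlapping or antisense genes may therefore be counted together. Per-library counts of 30560 gene identifiers and a series table of counts per symbol held the same values in all 349472 cells compared. The 6518 identifiers without a symbol held 1.85% to 2.28% of the counts and stayed in the fit.

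All identifiers were fitted together in edgeR 4.0.16 (R 4.3.3): filterByExpr, TMM scaling, quasi-likelihood dispersions with robust moderation, all 16 libraries with a mean for each group, and Benjamini-Hochberg adjustment over 13608 genes, called under 0.05. The common biological coefficient of variation was 0.289. The SE of a log2 fold change was its size divided by the square root of F. DESeq2 1.42.0 and limma voom 3.58.1 were among the alternatives. The steps were tested on simulated data. Ratios within a library were tested with exact permutation tests, two-sided. Promoter sequences and gene order came from RefSeq (GRCr8), a build other than that of the files.

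The members and gene lists were chosen with earlier results of these data known. Named in the text were all members, Rac1, Cybc1 and Hvcn1, up to 3 genes of a list with the smallest p in the difference in LPS response or in irradiated against sham rats given PBS, and the 3 genes most like each member. The markers Mpo, Prtn3, Elane, Ltf, Ngp, Mmp8, Plac8, Ccr2 and Lcn2 were named outside this rule, after their values were seen, as were marker sums without Csf3r or Plac8. The replicate numbers of the labels were not used as pairs: same-numbered libraries correlated by -0.057 to 0.405 after removing group means, and 8 of 16 pairs exceeded 0.1. One related gene is not reported here.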

Additional observations from a re-analysis of the deposited data

Results flagged for a closer look

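Of 36 sets of 4 libraries examined (the CPM of each member and the 4 log2 count ratios, in each group), 2 had one library far from the other 3 by Dixon's criterion, which chance alone meets in about 1 set in 20. Rac2 was at 323 CPM in irradiated PBS library 3, where the other 3 libraries of that group lay between 302 and 304 CPM, so the distance is small against the level. The log2 ratio of Rac2 to Rac1 was 1.42 in sham LPS library 4, the lowest of its group, and Rac1 was at 96.5 CPM there, its highest level in the study.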

How the results depend on the processing

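Over 25 results for single members and 670 alternatives in all, 644 kept both direction and side of the threshold, 18 lost a call, 2 gained one and 6 changed sign, none of them called. The sign changes were Cyba with LPS in irradiated rats (-0.11 with library totals alone, and -0.0633 to 0.0462 on the log2 scale when each library was left out) and Cybb with LPS in sham rats (-0.135 to 0.14 when each library was left out). The causes were not tested. For 9 named genes of the other lists only one alternative was run, chosen after seeing the data: without both irradiated libraries numbered 1, 40 of 45 results kept direction and side, 4 lost a call (Nadk in 3 comparisons, Rac1 in 1) and 1, the uncalled Hvcn1 difference in LPS response, changed sign to -0.0113. Leaving out each library gave 2 to 4 members called with irradiation under PBS. It was 2 without irradiated PBS library 3 or 4, or sham PBS library 2 or 4. For the difference in LPS response, 171 genes were called, against 439 with DESeq2, 98 without both irradiated libraries numbered 1 and 103 to 191 when each library was left out. With the replicate number as a block, 4, 4, 3, 2 and 0 members were called in the 5 comparisons (irradiation under PBS and under LPS, LPS in irradiated and in sham rats, and the difference), as without it, and 221 genes for the difference. The library correlated best with its own number in 7 of 16 cases.

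Scaling by library totals alone moved the median log2 fold change of all genes by 0.16 for irradiation under PBS and by -0.12 for LPS in irradiated rats. Calls split into 2331 higher and 725 lower, against 1566 and 1348 with TMM, in the first. They split into 1784 and 2768, against 2309 and 1968, in the second, and into 63 and 162, against 83 and 88, for the difference. The number of members called did not change. Every member had at least 1639 counts in every library, so counting error was small beside the spread between 4 libraries.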

Other observations

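Ncf4 and Rac2 both lie on chromosome 7, with 9 protein-coding genes between them in the RefSeq order (GRCr8), of which 8 were matched by symbol and 6 were tested. These neighbours were looked at after the values of the members were known. Csf2rb, the shared beta chain of the receptors for GM-CSF and related cytokines, rose with LPS by 2.73 ± 0.18 in irradiated rats and 3.08 ± 0.19 in sham rats on the log2 scale (SE, edgeR adjusted p = 1.3e-08 and 4.2e-09). With irradiation under PBS it changed by 0.29 ± 0.17 (SE, edgeR adjusted p = 0.268). Mpst, a mercaptopyruvate sulfurtransferase, rose with irradiation by 1.45 ± 0.15 under PBS and 1.60 ± 0.15 under LPS (SE, edgeR adjusted p = 1.1e-06 and 2.8e-07), and fell with LPS by 0.40 ± 0.14 in irradiated rats and by 0.55 ± 0.15 in sham rats (SE, edgeR adjusted p = 0.0383 and 0.00879). Il2rb, the interleukin-2 receptor beta chain of T and NK cells, rose in all 4 pairwise comparisons, with log2 fold changes of 1.93 to 2.89, beside the T and NK cell marker sums that also differed between groups. The part of such cells in these values was not tested.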
